A study of Mus musculus with 12 samples.

Results

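The genes described here encode 10 costimulatory and checkpoint molecules of antigen-presenting cells: Cd80, Cd86, Icosl, Cd276, Cd40, Tnfsf9, Havcr2, Lgals9, Pvr and Ido1. They were taken by gene symbol, with every probe the array carries for them, which gave 13 probes of the 39429 on the array. Of these genes 9 passed the filter on dim signals and stood among the 16402 genes tested; Ido1 did not pass it. None of the 9 changed past the threshold between macrophages of normal pancreas and macrophages of pancreatic tumor, where 0.854% of all genes did. Cd40 averaged 2.30-fold higher in tumor samples and Cd276 2.07-fold lower, each with groups that overlapped. Groups did not overlap for 3.43% of all genes. With another background correction, normexp, the Cd40 and Cd276 differences were 0.72 and -0.80 on the log2 scale, short of 2-fold. Pvr also averaged higher in tumor, but only 2 of 6 normal arrays had it well above background, and its difference was 0.26 with normexp.

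A T cell that recognises antigen on a macrophage also reads a second set of surface signals, which raise or restrain its response. CD80 and CD86 engage CD28 to activate and CTLA-4 to restrain T cells, and the same macrophage can display ligands of the tumor necrosis factor family, inhibitory partners of TIM-3 and TIGIT, and enzymes that deplete amino acids T cells need. In pancreatic tumors macrophages are among the most common immune cells, and these molecules are studied there as possible targets of immunotherapy.

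Messenger RNA was measured on 12 single-color Agilent arrays, 6 for macrophages of normal pancreas and 6 for macrophages of pancreas tumor. All samples were labelled female, C57/B6 and 4 to 5 months old, with the genotype not provided. The protocol speaks of animals that carried implanted tumors and of sorting straight into lysis buffer, while the design text names wild-type mice, KPC mice and FLT3-CRE/LSL-YFP mice without saying which gave each sample. KPC mice are a genetic model of pancreatic cancer, and FLT3-CRE with LSL-YFP marks descendants of Flt3-expressing blood progenitors. Arrays that share a sample name (normal replicates 2 and 3, tumor replicates 4 and 6) were averaged, which left 5 samples in each group. The comparison asks how expression in tumor macrophages differs from that in the macrophages of the normal organ.

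Values are the log2 of the processed signal minus the 75th percentile of the same array, so 0 marks a spot as bright as that percentile. The percentile itself ran from 398 to 1547 on normal arrays and from 1091 to 1398 on tumor arrays, and normal replicates 2 and 3 were the dimmest. On each array 39.3% to 58.7% of probes stood well above background. The median difference over all genes tested was -0.0044 on the log2 scale. All 18 macrophage identity genes were tested, 7 were positive and 11 negative, and 0 passed the threshold. Their mean lay between 4.56 and 5.21 in normal samples and between 4.68 and 5.14 in tumor samples. Adgre1, the only 1 of them with an unadjusted p under 0.05, differed by -0.80, and by -0.87 with its other probe. For the first probe limma gave an unadjusted p of 0.00751 and an adjusted p of 0.195. In RNA from a sorted population, fewer cells of a type and less RNA per cell cannot be told apart.

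Each probe is a single stretch of its transcript and reports only isoforms that carry it. Cd80 and Lgals9 are shown here because Cd80 is the gene of which a second probe could also be tested, and Lgals9 the gene with the narrowest interval. Both are 60 bases long, printed 5′ to 3′ as the array annotation gives them; no letters are in capitals because no part of a probe is singled out.
Cd80: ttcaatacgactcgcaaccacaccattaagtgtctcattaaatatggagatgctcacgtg
Lgals9: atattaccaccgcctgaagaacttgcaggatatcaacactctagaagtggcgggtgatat
The Cd80 probe lies at chr16:38479343-38479402 on the plus strand and the Lgals9 probe at chr11:78776922-78776981 on the minus strand, both on mm9. The annotation gives no exon or intron. Of the 13 member probes 6 hold the letters AATAAA, searched on the printed strand, against 12.6% of all probes; this hexamer is the common signal for adding the poly(A) tail.

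The ligands of CD28 and CTLA-4 overlapped between the groups. Cd80 read 1.85 in normal replicate 1, 1.87 in replicates 2 and 3, 0.995 in replicate 4, 1.79 in replicate 5 and 1.86 in replicate 6. In tumor it read 1.52 in replicate 1, 1.86 in replicate 2, 0.52 in replicate 3, 0.96 in replicates 4 and 6, and 2.17 in replicate 5. Normal replicate 4 stood below the other normal samples, and tumor replicate 5 was the only tumor sample above every normal one. The difference, tumor minus normal, was -0.26 ± 0.34 (SE) on the log2 scale, with a 95% interval from -1.01 to 0.48 (limma, adjusted p = 0.774). A change of more than 2-fold upward lies outside that interval, whereas a downward one just reaches its edge. Within slides 1, 2 and 3 the difference was -0.15, -0.69 and -0.27. Between groups 0 of the 9 members tested passed an adjusted p of 0.05, where 0.854% of all genes did.

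A second Cd80 probe, at chr16:38486772-38486831, was also well above background on all 12 arrays. It averaged -0.53 ± 0.43 (SD, n = 5) in normal and -0.81 ± 0.37 (SD, n = 5) in tumor samples. Its difference of -0.28 ± 0.27 (95% interval -0.89 to 0.33) had the sign and nearly the size of the first. Taken probe by probe, 0 of the 10 member probes tested passed the threshold, where 0.829% of all probes did. The samples did not line up in the same way: tumor replicate 5 was the highest tumor sample with the first probe (2.17) and the lowest with the second (-1.24).

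Cd86, the other CD28 ligand, was well above background on all arrays at chr16:36603961-36604020. Normal samples read 0.43, -0.30, -0.11, 0.61 and 0.73 in replicate 1, replicates 2 and 3, and replicates 4, 5 and 6. Tumor samples read 0.54, 0.21, -0.44, -0.87 and 0.87 in replicates 1, 2 and 3, replicates 4 and 6, and replicate 5. Both groups thus spanned the percentile of the array, with tumor replicates 4 and 6 lowest and tumor replicate 5 highest of all. The difference was -0.21 ± 0.36, with a 95% interval from -1.01 to 0.59 and an adjusted p of 0.839. Its sign varied with the slide (0.38, -0.51 and -0.68 on slides 1, 2 and 3), and without tumor replicates 4 and 6 it was 0.024. A second probe, assigned by the array to a predicted transcript of this gene at chr16:36569043-36569102, was not well above background on any array.

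Icosl encodes the ligand of ICOS, a costimulatory receptor of activated and follicular helper T cells. In normal samples it read 0.25 in replicate 1, -1.64 in replicates 2 and 3, 0.48 in replicate 4, -0.46 in replicate 5 and 0.16 in replicate 6. Tumor samples read 1.27 in replicate 1, -0.07 in replicate 2, -0.57 in replicate 3, 0.58 in replicates 4 and 6, and 0.82 in replicate 5. Tumor replicate 1, the averaged replicates 4 and 6, and replicate 5 lay above every normal sample, and the other tumor samples lay inside the normal range. The difference was 0.65 ± 0.46 (95% interval -0.37 to 1.67, adjusted p = 0.584). It was positive on each of the 3 slides, at 1.36, 0.59 and 0.79, and was 0.30 when normal replicates 2 and 3 were left out. The probe, at chr10:77542211-77542270, was not well above background on normal replicate 2. A further Icosl probe of a splice form, at chr10:77545941-77546001, was well above background on 1 normal and 2 tumor arrays and was not tested.

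Cd276, or B7-H3, is a B7 family member whose T cell receptor is not settled and which is abundant on many tumors and their stroma. Normal samples ranged widely, from -1.42 in replicate 1 through -0.60 in replicate 6 and -0.05 in replicate 5 to 1.01 in replicates 2 and 3 and 1.13 in replicate 4. Tumor samples read -1.46 in replicate 1, -0.45 in replicate 2, -0.97 in replicate 3, -0.35 in replicates 4 and 6, and -1.96 in replicate 5. Normal replicates 2, 3, 4 and 5 lay above every tumor sample and tumor replicates 1 and 5 below every normal one, and the ranges overlapped between -1.42 and -0.35. The difference was -1.05 ± 0.52, or 2.07-fold higher in normal, with a 95% interval from -2.19 to 0.09, an unadjusted p of 0.0676 and an adjusted p of 0.427. Within slides it was -0.74, -1.73 and -0.84. Leaving out 1 sample at a time moved it between -1.41 (without normal replicate 1) and -0.77 (without normal replicate 4). The probe aligns over 44 bases at chr9:58372107-58372150 and was well above background on all arrays.

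**Figure D1:**
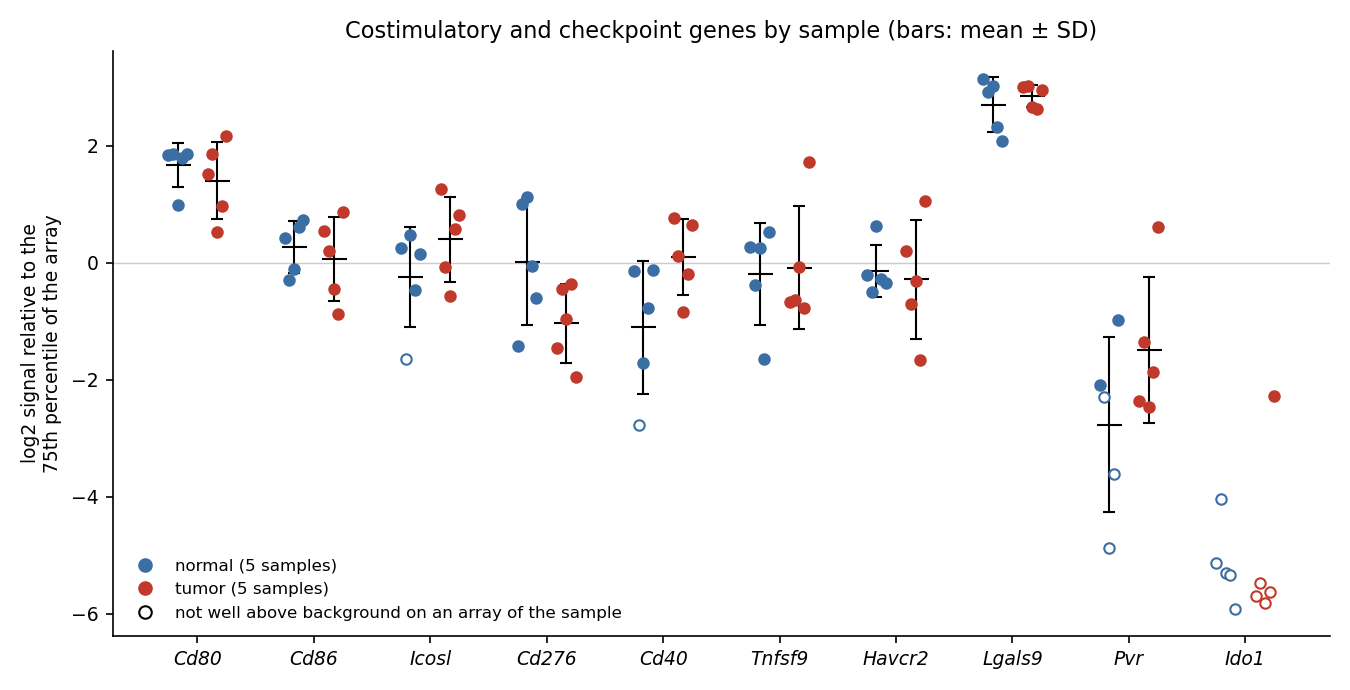
Each point is 1 sample of the gene's tested probe (Ido1: its only probe), on the vertical axis as log2 signal relative to the 75th percentile of its array; bars are the mean and SD of 5 samples per group, and open points mark samples with an array not well above background. Groups overlap for every member tested, and Ido1 is above background in tumor replicate 5 alone; levels of different probes are not comparable.

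Among the tumor necrosis factor superfamily, Cd40 had the smallest p of the members. CD40 is the receptor through which helper T cells, by CD40 ligand, license macrophages and dendritic cells. Normal samples read -0.14 in replicate 1, -2.77 in replicates 2 and 3, -1.72 in replicate 4, -0.77 in replicate 5 and -0.12 in replicate 6. Tumor samples read 0.76 in replicate 1, 0.11 in replicate 2, -0.85 in replicate 3, -0.19 in replicates 4 and 6, and 0.65 in replicate 5. Of the tumor samples 3 lay above every normal one, and tumor replicate 3 lay below 3 of the normal ones.

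The Cd40 difference was 1.20 ± 0.53, a fold of 2.30 with a 95% interval from 1.02 to 5.18 that is not adjusted for the number of genes. Its unadjusted p was 0.0451, the only one under 0.05 among the members, a level that 13.0% of all genes reached, and its adjusted p was 0.369. With slide as a block and sample name as a random block over the 12 arrays, limma gave an unadjusted p of 0.059. That fit had a difference of 1.17, an adjusted p of 0.371 and 0 members under an unadjusted p of 0.05. With 1 sample left out at a time, without slide, the limma unadjusted p ran from 0.024 to 0.0998. The interval's exclusion of a fold of 1 thus depends on the fit and on the samples used. In the main fit the Cd40 difference was larger in size than that of 91.9% of the genes tested. On normal replicates 2 and 3 the probe, at chr2:164897085-164897144, was not well above background, with processed signals of 62.7 and 59.0, against 292 to 1421 on the other normal arrays and 778 to 2095 on tumor arrays. These were also the arrays with the lowest percentile of signal and the sample with the highest mean of acinar genes (8.12). Without them the difference was 0.79 (adjusted p = 0.50), and with another background correction, normexp, it was 0.72. Slides 1 and 2 gave 1.84 each and slide 3 gave 0.61. The same-named arrays differed from each other by 0.20 in normal and 0.27 in tumor, below the SD between samples of 1.14 and 0.66. The normal pair is replicates 2 and 3, so its 0.20 cannot show how closely arrays repeat a Cd40 signal above background. That sample, at -2.77, also enters the SD of 1.14.

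Tnfsf9 encodes the ligand of 4-1BB, a costimulatory receptor of activated T and natural killer cells. It read 0.27, -0.38, 0.25, -1.64 and 0.53 in normal replicate 1, replicates 2 and 3, and replicates 4, 5 and 6. Tumor samples read -0.66, -0.63, -0.07, -0.77 and 1.73 in replicates 1, 2 and 3, replicates 4 and 6, and replicate 5. Tumor replicate 5 alone lay above the normal samples, and the other tumor samples lay within their range. The difference was 0.11 ± 0.55 with a 95% interval from -1.1 to 1.33 (adjusted p = 0.948), and it was -0.34 without tumor replicate 5 and -0.25 without normal replicate 5. Slides 1, 2 and 3 gave -0.62, -0.27 and 0.99. An interval this wide holds changes of more than 2-fold in either direction. The probe lies at chr17:57247062-57247121. Its receptor gene Tnfrsf9, named here after its values were seen, averaged 4.05 in normal and 3.65 in tumor samples (difference -0.40 ± 0.29, adjusted p = 0.584).

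Havcr2 encodes TIM-3, an inhibitory receptor of exhausted T cells that macrophages and dendritic cells also carry. Normal samples read -0.21, -0.49, 0.62, -0.28 and -0.34 in replicate 1, replicates 2 and 3, and replicates 4, 5 and 6. Tumor samples read 0.20, -0.70, -0.32, -1.66 and 1.05 in replicates 1, 2 and 3, replicates 4 and 6, and replicate 5. The tumor samples enclosed the normal ones on both sides, with an SD of 1.01 against 0.44. The difference was -0.14 ± 0.46, with a 95% interval from -1.15 to 0.86 and an adjusted p of 0.918. Its sign turned without tumor replicates 4 and 6 (0.20) or without normal replicate 4 (0.048), and slides 1, 2 and 3 gave 0.14, -0.99 and -0.09. The probe lies at chr11:46294675-46294734.

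Lgals9 encodes galectin-9, a sugar-binding protein described as a ligand of TIM-3. It had the smallest standard error of the members, although Cd80, Cd86 and Havcr2 spread less among normal samples. Normal samples read 3.15, 2.92, 3.03, 2.32 and 2.08 in replicate 1, replicates 2 and 3, and replicates 4, 5 and 6. Tumor samples read 3.0, 3.02, 2.66, 2.63 and 2.95 in replicates 1, 2 and 3, replicates 4 and 6, and replicate 5, all inside the normal range. The difference was 0.15 ± 0.26 (95% interval -0.41 to 0.72, adjusted p = 0.833), so a change of 2-fold either way lies outside the unadjusted interval. Slides 1, 2 and 3 gave -0.064, -0.27 and 0.57, and without normal replicate 6 the difference was -0.0036. This is the probe printed above from the minus strand of chromosome 11.

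Pvr encodes CD155, the ligand that TIGIT and CD96 on one side and the activating receptor CD226 on the other compete for. It was a dim gene: well above background on all 6 tumor arrays and on 2 of 6 normal arrays, replicates 1 and 6. Normal samples read -2.08 in replicate 1, -2.29 in replicates 2 and 3, -4.87 in replicate 4, -3.62 in replicate 5 and -0.98 in replicate 6. Tumor samples read -2.36 in replicate 1, -1.35 in replicate 2, -2.47 in replicate 3, -1.87 in replicates 4 and 6, and 0.61 in replicate 5. Only tumor replicate 5 exceeded the brightest normal sample. The difference was 1.28 ± 0.77, a fold of 2.43, with a 95% log2 interval from -0.42 to 2.98 (adjusted p = 0.517). It was 0.26 with normexp, and 0.50, 1.21 and 1.7 within slides 1, 2 and 3. Leaving out 1 sample moved it between 0.75 and 1.73. Its residual spread exceeded that of 93.0% of genes. The probe lies at chr7:20489657-20489716.

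Ido1 encodes indoleamine 2,3-dioxygenase, an interferon-induced enzyme that breaks down tryptophan. Its probe, at chr8:25694613-25694672, was well above background on 1 of the 12 arrays. That array was tumor replicate 5, with a processed signal of 258. The other 11 arrays read between 23.9 and 25.5, and no difference between groups was computed. Tumor replicate 5 also held the highest tumor value of 5 of the 9 members tested: Cd80, Cd86, Havcr2, Pvr and Tnfsf9.

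**Figure D2:**
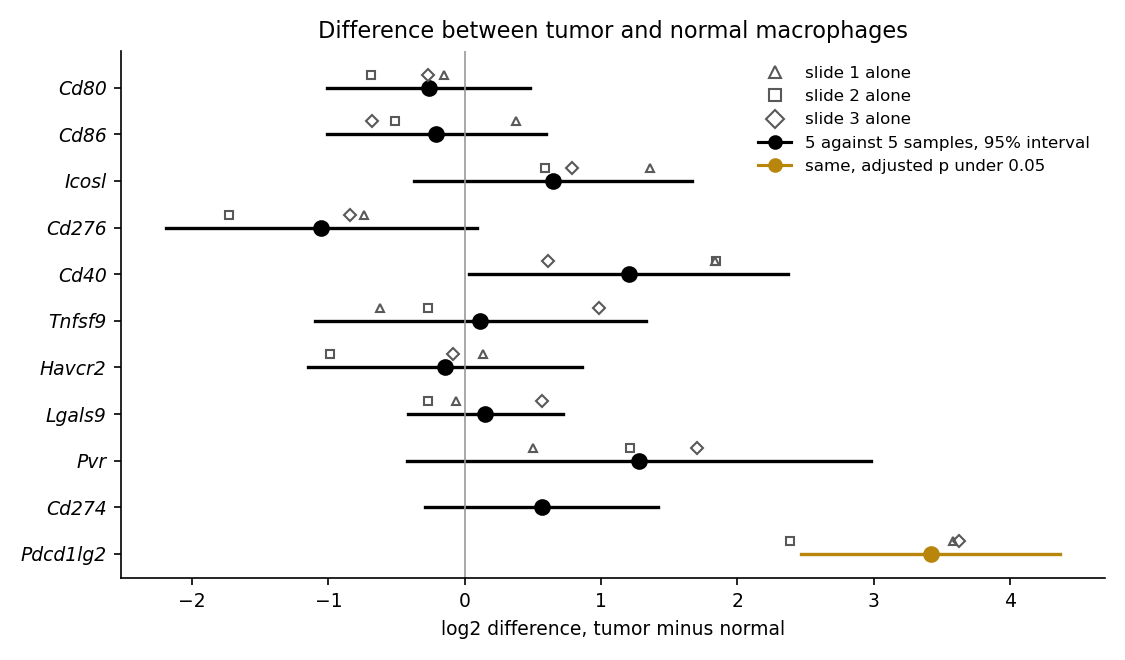
Filled points are the log2 difference between tumor and normal macrophages for 5 against 5 samples, with 95% intervals; open symbols are the differences of 2 against 2 arrays within slides 1, 2 and 3, above each gene. Intervals of the 9 members all include 0 apart from Cd40, which starts at 0.03, and Pdcd1lg2, below background in the normal group, lies apart at a measured 3.42; Cd274 has no slide values.

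Side by side, 5 of the 9 members averaged higher and 4 lower in tumor. Their median difference was 0.11, beside -0.0044 over all genes, and their median size was 0.26, beside 0.35. For 0 of the 9 did the groups separate, where 3.43% of all genes had groups that did not overlap. Differences beyond 1 log2 unit were seen for 3 members (Cd40, Pvr and Cd276), and 11.7% of all genes showed one. With normexp none of the 9 exceeded 1, Cd40 being 0.72, Cd276 -0.80 and Pvr 0.26, and in the main values Pvr is set against a normal group below background on 4 of 6 arrays. The widths of the intervals ran from 1.13 for Lgals9 to 3.40 for Pvr. With slide as a block the 9 members gave between -1.05 (Cd276) and 1.36 (Pvr), again with 0 past the threshold. The smallest difference that passed the threshold among all genes was 1.01 in size.

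Some members resembled each other across samples within groups, and others did not. After the mean of each group was taken off, Pearson r over the 10 samples exceeded 0.7 for 4 of the 36 pairs: Cd40 with Cd86 (0.77), Cd40 with Icosl (0.74), Cd80 with Cd86 (0.73) and Cd80 with Pvr (0.75). Over all pairs of the genes tested with no missing value, 3.16% exceeded 0.7. The median over the 36 member pairs was 0.22, and 11 pairs were below 0. Cd276 ran the other way, with r of -0.81 against Cd40 and -0.71 against Cd86. These were the 2 of 36 member pairs under -0.7, where 2.62% of all pairs of genes were. In normal samples alone Cd40 and Cd276 gave -0.89, and in tumor samples alone -0.59. These values describe 10 samples that share 3 slides and the same scaling, and they carry no test. Normal replicates 2 and 3 were lowest for 4 members, as were tumor replicate 3 and tumor replicates 4 and 6, while normal replicate 6 was highest for 4.

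**Figure D3:**
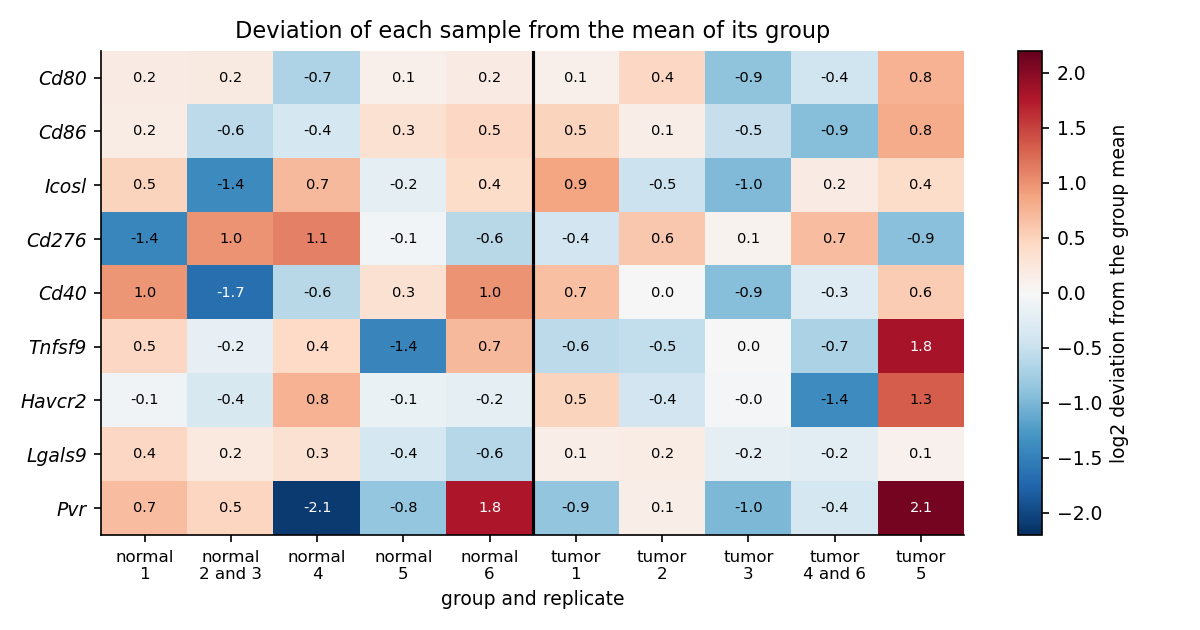
Each cell is the log2 deviation of a sample (columns, named by group and replicate) from the mean of its group for one member (rows), with blue below and red above. Tumor replicate 5 stands high for Pvr, Tnfsf9 and Havcr2, and Cd276 has the opposite sign to Cd40 in all 5 normal samples.

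The genes with the pattern most like that of Cd40 over the 10 samples were Siglecg (r = 0.976), a sialic-acid receptor, and Ltb4r1 (0.971), a leukotriene B4 receptor. For Icosl they were Mob3a (0.985) and Irf8 (0.971), a transcription factor of the monocyte and dendritic cell lineages. With group means removed Icosl was again most like Irf8 (0.983). Havcr2 was most like Rrn3 (0.95) and Cd276 most like Lhfpl4 (0.935). Pvr was most like Prkab2 (0.943), Lgals9 most like the probe group NAP061234-1 (0.923) and Cd80 most like 4933439C10Rik (0.928). Tnfsf9 was most like Rbbp7 (0.919) and Cd86 most like Rab11b (0.908). Each has rank 1 or 2 among the 16291 genes with no missing value, ranked on these samples, so a high r is built into the choice.

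The other ligands of the B7 and butyrophilin family differed in 1 of 7 genes tested, out of 8 listed. That gene was Pdcd1lg2, which encodes PD-L2, a ligand of the T cell receptor PD-1. None of the normal arrays had it well above background and all 6 tumor arrays did, which makes tumor at least 4.52-fold higher, a bound without a test. Its measured means were -4.43 ± 0.50 and -1.01 ± 0.90 (SD, n = 5 each), and its groups did not overlap. The test was made on the measured difference of 3.42 (limma, adjusted p = 0.00599). Cd274, which encodes the other PD-1 ligand PD-L1, differed by 0.56 ± 0.39 (adjusted p = 0.571) and was well above background on 1 normal and 6 tumor arrays. Vsig4, an inhibitory receptor of resident macrophages, was above background on 3 normal arrays and no tumor array. By group means it was at least 2.77-fold lower in tumor, a bound without a test. Its groups overlapped, from -5.55 to -0.83 in normal samples and from -5.87 to -3.90 in tumor samples. Its measured difference of -2.75 did not pass the test (limma, adjusted p = 0.214). Btn1a1 differed by -0.48 ± 0.21 (adjusted p = 0.374). The list's median was -0.05, with 3 genes positive and 4 negative.

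Of the other tumor necrosis factor ligands and the receptor HVEM, 6 of 12 listed genes were tested and 0 passed. Their median was 0.80, with 4 positive and 2 negative. Tnfsf8, the CD30 ligand, differed by 1.33 ± 0.45 (adjusted p = 0.238), and Tnf by -0.90 ± 0.30 (adjusted p = 0.232). Cd70, the ligand of CD27, was above background on 0 normal and 4 tumor arrays, at least 1.1-fold higher in tumor by group means, with groups that overlapped. Its measured difference was 1.98 (limma, adjusted p = 0.195). Tnfsf4, Tnfsf18, Fasl and Tnfsf10 were not well above background on any array, and Tnfsf13 matched no probe by symbol.

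In the list of nectin and nectin-like genes, which includes Cadm1 and Crtam, 6 of 6 genes were tested. By the probe used for each gene 1 was positive and 5 negative, and 0 passed, with a median of -0.25. Nectin2 differed by -0.34 with that probe but by 1.24 with its other one, whereas Nectin3 was negative with both (-0.15 and -1.30). Nectin1 differed by 1.09 ± 0.35 (adjusted p = 0.223), Nectin4 by -0.83 ± 0.37 (adjusted p = 0.380) and Cadm1 by -0.94 ± 0.51 (adjusted p = 0.472). Of the TIM family, galectins and other TIM-3 partners 7 of 9 were tested and 0 passed, at a median of 0.12 with 4 positive and 3 negative. Timd4, the phosphatidylserine receptor TIM-4 of resident macrophages, had the largest estimate of that list, -3.75 ± 0.85 with an adjusted p of 0.0819. It was above background on 4 normal arrays and 1 tumor array. Lgals1, which encodes galectin-1, differed by -0.29 ± 0.29 (adjusted p = 0.70) and Havcr1 by -1.08 ± 0.65 (adjusted p = 0.518).

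All 10 inhibitory receptors of phagocytes and all 9 adhesion costimulators were tested, and 0 passed in either list. Their medians were 0.13 in each. Pilra, a paired inhibitory receptor, differed by 1.08 ± 0.33 (adjusted p = 0.200) with groups that did not overlap, and its other probes gave 1.06 to 1.35. Lilrb4a differed by 0.80 ± 0.40 (adjusted p = 0.431) and Cd200r1 by 0.82 ± 0.52 (adjusted p = 0.538). Among adhesion genes Icam2 (-0.60 ± 0.32, adjusted p = 0.466), Cd48 (-0.40 ± 0.24, adjusted p = 0.524) and Itgb2 (0.45 ± 0.25, adjusted p = 0.475) had the smallest p.

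The receptors on the T cell side are the other end of these pairs, and which cells gave their transcripts was not tested. Of 12 listed 7 were tested, with a median of 0.32, and 0 passed. Btla differed by 2.39 ± 0.58 (adjusted p = 0.101) and was above background on 1 normal and 6 tumor arrays. Tnfrsf4, which encodes OX40, differed by 1.51 ± 0.34 (adjusted p = 0.0804), and its groups did not overlap. Cd28 differed by 1.07 ± 0.69 (adjusted p = 0.546). Cd96 and Lag3 were not well above background on any array, Ctla4 was above it on 2 normal and 1 tumor arrays, Pdcd1 on 1 normal array and Tigit on 1 tumor array. Of the T and natural killer cell markers 9 of 12 were tested, 0 passed, and their median difference was -0.29. Cd3g and Klrb1c were not well above background on any array.

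Downstream of CD40, 14 of 14 signalling genes were tested, 11 were positive and 3 negative, and 0 passed, with a median of 0.49. Traf1, an adaptor induced by NF-kappa-B, differed by 1.11 ± 0.45 (adjusted p = 0.331). Map3k14, the NIK kinase of the noncanonical arm, differed by 0.62 ± 0.26 (adjusted p = 0.353) and Traf2 by 0.60 ± 0.33 (adjusted p = 0.478). Of the tryptophan and kynurenine genes around Ido1, 9 of 12 were tested, 8 were positive and 1 negative, and 0 passed, with a median of 0.31. Il4i1, a secreted amino acid oxidase that acts on tryptophan and phenylalanine, averaged 1.61 ± 1.43 in normal and 3.85 ± 1.09 in tumor samples (SD, n = 5 each), a difference of 2.24 ± 0.71 (adjusted p = 0.214). Ahr, the receptor for kynurenine and other ligands, differed by 1.85 ± 0.74 (adjusted p = 0.326), and its other probe by 0.95. Kynu was above background on 0 normal and 3 tumor arrays.

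Interferon-gamma is a known inducer of Ido1 and of several B7 ligands, and its response list holds receptor and kinase genes beside target genes. All 12 genes of the list were tested, 6 were positive and 6 negative by the probe used, the median was 0.09 and 0 passed. Irf1 was negative with that probe (-0.22) and positive with its other one (0.84), while Cxcl9 and Cxcl10 were negative with both. Jak2 differed by 1.16 ± 0.37 (adjusted p = 0.214), Socs1 by 0.79 ± 0.29 (adjusted p = 0.285) with groups that did not overlap, and the chemokine Cxcl9 by -0.80 ± 0.35 (adjusted p = 0.364). Over the 10 lists 87 of 104 genes were tested and 1 passed, Pdcd1lg2, where 0.854% of all genes passed. At an unadjusted limma p under 0.05, 13 of the 87 were higher and 7 lower. Over all genes 2126 of 16402 (13.0%) reached that level in either direction. The median difference over the lists was 0.17. These lists were chosen with earlier results of the same data known.

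**Figure D4:**
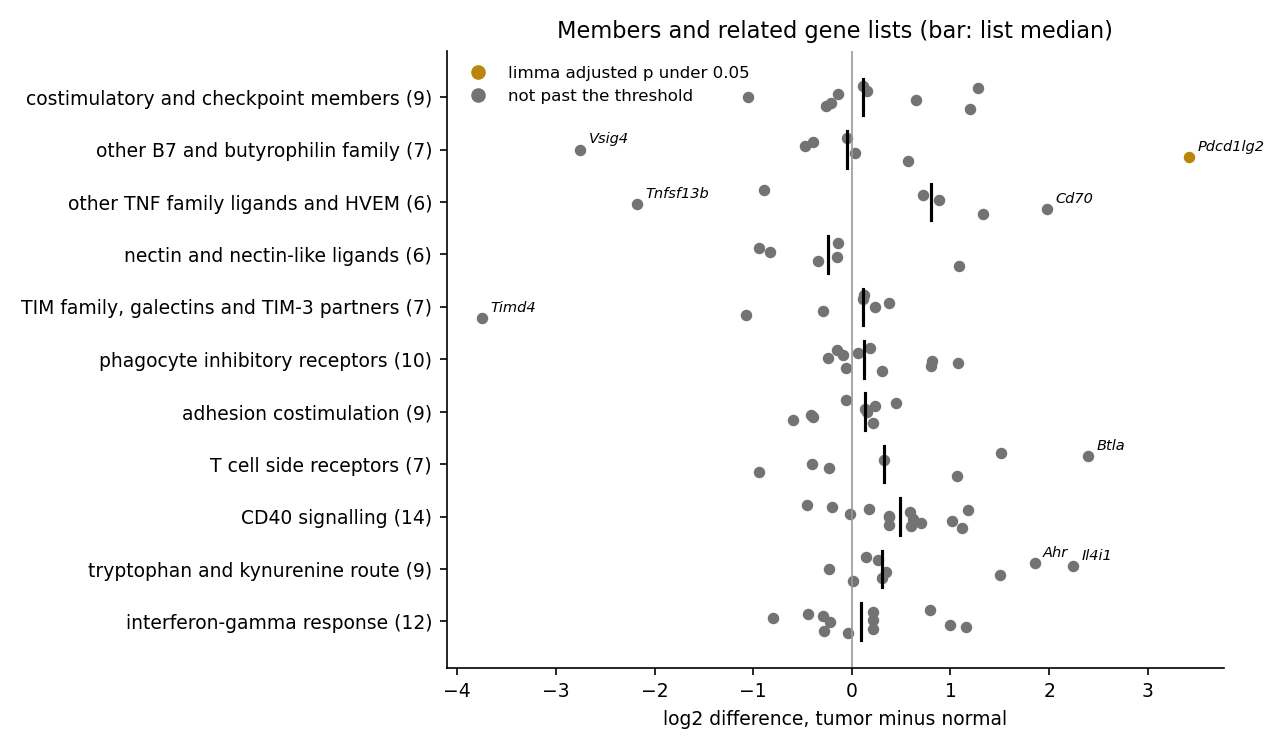
Each point is a gene's log2 difference between tumor and normal samples, one row per list with the number of genes tested in brackets; the bar is the list's median, and labels mark the most distant points. Gold marks the gene past the limma threshold, Pdcd1lg2; points of genes below background in a group, such as Vsig4, Cd70 and Pdcd1lg2, are measured differences and not bounds.

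Transcripts of other cells differed between the groups, and their part in the values above was not tested. All 16 acinar genes averaged lower in tumor and 13 passed the threshold, with a median difference of -6.75. Their list mean lay between 4.41 and 8.12 in normal samples and between -2.66 and 2.67 in tumor samples, and their summed relative signal between 505 and 5506 and between 8.64 and 243. Dendritic cells carry many of these costimulators. Of their markers 10 of 13 were tested, 8 averaged higher and 0 passed, with a median of 1.18. Their list mean was 1.25, 0.73, 0.12, 0.72 and 1.36 in normal samples and 2.44, 1.45, 0.58, 2.05 and 2.54 in tumor samples, in the order of replicates used above. Their summed relative signal lay between 69.6 and 129 in normal samples and between 47.7 and 173 in tumor samples. Tumor replicate 3 had the lowest dendritic mean of the tumor samples and also the lowest Cd40, Icosl, Pvr and, by its first probe, Cd80. Tumor replicates 4 and 6, with a dendritic mean of 2.05, were lowest for 4 members: Cd86, Havcr2, Lgals9 and Tnfsf9. Tumor replicate 5, with the highest dendritic mean (2.54), was highest for 5 of the 9 members tested. It was the lowest tumor sample for Cd276 and for the second Cd80 probe (-1.24). Normal replicate 4 had the lowest dendritic mean of all samples (0.12). Of the normal samples it was highest for Icosl (0.48), Havcr2 (0.62) and Cd276 (1.13). It was the lowest normal sample for Pvr (-4.87) and, by the first probe, for Cd80 (0.995). Xcr1 was above background on 1 normal array, Clec9a on 1 normal and 2 tumor arrays, and Ccl22 on 2 tumor arrays.

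Of the neutrophil markers 8 of 9 were tested with a median of 1.92, and 1 passed, Retnlg (4.34 ± 0.78, adjusted p = 0.0338). Their list mean lay between -3.02 and -1.77 in normal samples and between -2.50 and 0.39 in tumor samples, and tumor replicate 5, which led most members, had the lowest neutrophil mean of the tumor group. B cell markers (6 of 8 tested, median -0.41), ductal and tumor epithelial markers (8 of 10, -0.44), endothelial markers (7 of 8, -0.57) and fibroblast markers (5 of 8, -0.20) had 0 genes past the threshold. Ms4a1, Cdh1, Sox9 and Pdgfra were not well above background on any array.

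**Figure D5:**
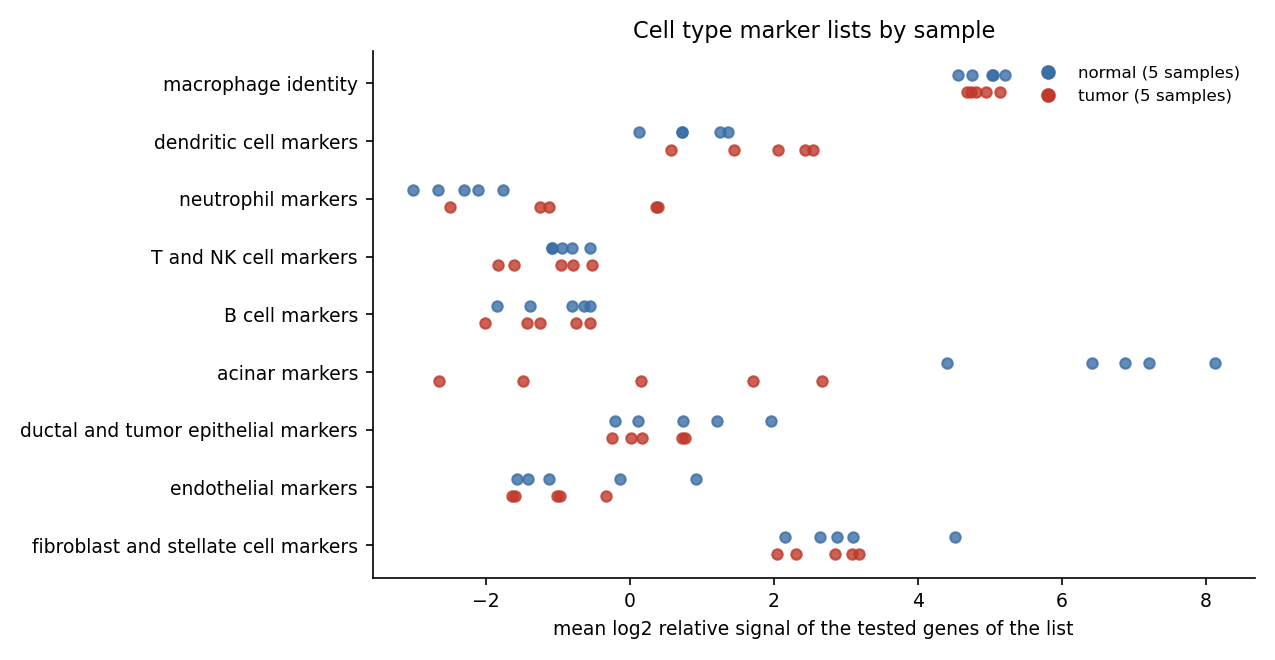
Each point is the mean log2 relative signal of a list's tested genes in 1 sample, normal in blue and tumor in red. The acinar points separate, from 4.41 to 8.12 against -2.66 to 2.67, while macrophage identity overlaps and the dendritic and neutrophil points overlap in part.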

How the data were processed

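Macrophages of normal pancreas and pancreas tumor were measured on 12 arrays, 6 a group. Per the file headers, arrays were read in the red channel with Agilent Feature Extraction 11.5.1.1, and the intensity values the authors deposited include a processed signal with background already subtracted. RNA was amplified before labelling, per the labels' protocols, so a fold is one of amplified signal. A log2 table that the authors deposited equals quantile-normalized processed signals (lowest correlation 0.9999). Its column medians are 7.08, and its genes are not centred.

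Control spots and spots with outlier flags (0.401%) were left out, and 0 were saturated. The 75th percentile of each array's log2 processed signal was subtracted. The filter kept 22446 probes, those well above background on at least 3 of 6 arrays in 1 group or the other. Gene names came from a RefSeq table of GRCm38.p6, matched by accession (28025 probes), symbol (3413) or synonym (295); 4985 kept the name in the file and 2711 had none. A gene took its probe with the highest mean, and all member probes are described. Positions come from the array annotation (mm9).

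Each of the 3 slides, scanned separately, held 2 arrays of either group. Whether sample names stand for separate animals is not labelled; p-values therefore cover the spread among these samples only, part of which may be technical. For the 5 samples of each group, limma (version 3.58.1, R version 4.3.3) was run with lmFit and eBayes, and two-sided p-values were adjusted by Benjamini-Hochberg over the 16402 genes, with a threshold of 0.05. Precision is limited by the number of arrays. A gene not well above background on every array of a group has a bound there: its "at least" fold sets the bright group's mean against a dim mean in which each array counts with the higher of its own signal and the lowest signal well above background.

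The members and gene lists were chosen with earlier results of these data known. Every member is named, and from each pathway list the 3 genes with the smallest p and any past the threshold. Nectin2, Nectin3, Irf1, Cxcl10 and Adgre1 are named besides, after their values were seen. Markers are otherwise given by list. Alternatives covered background, scaling, the deposited log2 table, the dim-probe filter, same-named arrays, slides, probes, variance model, threshold and each sample left out.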

Additional observations from a re-analysis of the deposited data

Results flagged for a closer look

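Each of the 13 member probes was examined in the normal and in the tumor group, with 5 samples each. Of these values 5 stood apart from the rest of their group by Dixon's criterion, which chance meets in about 1 of 20 groups. Each is a log2 signal relative to the 75th percentile of the array. Cd80 in normal replicate 4 was 0.995, and the nearest other normal sample was 1.79. Havcr2 in normal replicate 4 was 0.62, and the nearest was -0.21. Tnfsf9 in tumor replicate 5 was 1.73, and the nearest was -0.07. Ido1 in tumor replicate 5 was -2.27, and the nearest was -5.48, in a group whose other samples were not well above background. The second Cd86 probe in tumor replicates 4 and 6 was -5.38, and the nearest was -5.29, where no array was well above background, so that these values have no order.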

How the results depend on the processing

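The 9 members were recomputed under 25 alternatives, giving 225 values, and 213 kept their direction and stayed past or short of the threshold as before. Part of that count was fixed in advance. Another dim-probe filter or variance model left every member's difference as it was, and another probe choice moved only that of Cd80. The deposited log2 table nearly repeats quantile normalization, with Cd40 at 1.16 in both. The count of members called was 0 under every alternative, with a lowest adjusted p of 0.158 (Cd40, 12 arrays as separate samples). The remaining 12 of the 225 values changed sign, in Cd86, Havcr2, Lgals9 and Tnfsf9, and the cause was not tested. With slide 1 alone Cd86 was 0.38, Havcr2 0.14, Lgals9 -0.064 and Tnfsf9 -0.62. With slide 2 alone Lgals9 was -0.27 and Tnfsf9 -0.27. Without tumor replicates 4 and 6 Cd86 was 0.024 and Havcr2 0.20. Havcr2 was 0.048 without normal replicate 4, Tnfsf9 -0.34 without tumor replicate 5 and -0.25 without normal replicate 5, and Lgals9 -0.0036 without normal replicate 6. With each sample left out in turn, Cd86 ran from -0.41 to 0.024, Havcr2 from -0.48 to 0.20, Lgals9 from -0.0036 to 0.26 and Tnfsf9 from -0.34 to 0.29. Over all genes 140 were called, against 263 at an adjusted p under 0.10, 213 with normexp (offset 50), 460 with 12 arrays as separate samples and 236 with a mean trend and robust variances. Slides 1, 2 and 3 alone gave 0 calls each by limma, with 1590, 1565 and 953 genes at an unadjusted p under 0.05. Leaving out 1 sample gave 59 to 197 calls: 84 without normal replicate 1, 88 without normal replicate 4, 59 without normal replicate 5, 78 without tumor replicate 1 and 71 without tumor replicate 2. No paired analysis was possible because replicate numbers follow the order of deposition and the labels tie no normal sample to a tumor sample. Dim signal limits Pvr, Ido1, Cd40 and Icosl, each not well above background on at least 1 normal array.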
